A study of Sus scrofa with 15 samples.

Results

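The genes described here encode nuclear-encoded subunits of the respiratory chain and of ATP synthase in IPEC-J2 cells, an epithelial cell line from pig jejunum. They were chosen by the start of the pig gene symbol (NDUFA, NDUFB, NDUFC, NDUFS, NDUFV, UQCR, COX4 to COX8 and ATP5, with the SDH genes and CYC1, without the NDUFAF assembly factors). The choice gave 69 of the 16804 genes listed in both deposited tables. Of these, 37 belong to complex I, 4 to complex II, 2 to complex III, 9 to complex IV and 15 to complex V. The complex III genes are UQCR10 and UQCRB only, and no CYC1, COX4 or COX8 gene was among the members. Values for complexes III and IV therefore describe the genes found, not the whole complex. ATP5S and ATP5SL carry an ATP synthase name but are not structural subunits and were kept outside the complexes. NDUFA4 and its paralogue NDUFA4L2 were placed with complex IV, where the NDUFA4 protein is now known to reside. None of the 13 subunits encoded by mitochondrial DNA was found in either deposited table under the symbols searched, so they were not analysed here.

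The study asked how lentiviral vectors directed at miRNA 133 and miRNA 143 alter gene expression, and it holds 15 RNA-seq libraries of total RNA in 5 groups of 3. Lv133KD and Lv143KD are the knockdown vectors and share the control vector Lv3NC. OV143 is the miRNA 143 overexpression vector, with Lv20NC as its own control vector. The series' description names miRNA 133 for both knockdown vectors, but a sample label reads Lv143KD for one of them. The target of that vector is therefore unsettled, and miRNA levels were not analysed here. All groups are the same line carrying a lentivirus, no untransduced cells enter a comparison, and nothing in the labels ties the 3 libraries of a group to separate cultures. The p-values therefore cover only the spread between libraries, which may be technical.

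Complex I (NADH dehydrogenase) and complex II (succinate dehydrogenase) pass electrons to ubiquinone, complex III hands them to cytochrome c, and complex IV (cytochrome c oxidase) reduces oxygen. Complexes I, III and IV pump protons, and complex V (ATP synthase) uses the resulting gradient to make ATP. Complex II also belongs to the TCA cycle and is the only complex built from nuclear genes alone. Intestinal epithelial cells draw on this system for nutrient uptake and renewal.

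Values are FPKM, fragment counts scaled by transcript length and library size, so levels of genes are set beside each other as a description. How closely FPKM follow the RNA level of each gene was not tested. COX7C, at 40.3 FPKM in Lv3NC and 319 FPKM in Lv20NC, shows that a level can depend on the table or the control vector. The deposited FPKM do not keep the read totals, so depth is unknown. FPKM sums were 486086 to 558042 in 14 libraries and 662022 in OV143 replicate 2. OV143 replicate 2 stood apart from the other libraries, and values without it are given beside the OV143 results. The epithelial markers EPCAM and KRT8 were at 267 FPKM or more in every library, whereas the intestinal transcription factor CDX2 was at or below 0.07 FPKM and the brush border gene VIL1 between 0.98 and 4.14 FPKM. Immune markers summed to 7.22 FPKM at most, and the leukocyte gene PTPRC was at 0 in the knockdown libraries. Endothelial markers summed to 13.63 FPKM at most, with CDH5 at 8.28 to 10.75 FPKM in the knockdown libraries and 3.82 to 4.85 FPKM in the others. Fibroblast markers summed to 5.92 FPKM at most and muscle markers to 4.18 FPKM.

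The subunit genes were among the more abundant transcripts of the cells. In every library 66 of the 67 members that passed the filter on low values (3 or more libraries of a table at 1 FPKM or above) lay above the median of the tested genes, and 37 to 49 lay in its top decile. Together the 69 genes made up 1.45% to 1.62% of the FPKM sum in the knockdown table. In the overexpression table they made up 1.63% to 1.72% in 5 libraries and 2.005% in OV143 replicate 2. The 2 members that failed the filter are tissue-restricted paralogues. COX7A1, the muscle form of a complex IV subunit, was at 0.09 to 0.48 FPKM in the knockdown libraries and 0.3 to 1.22 FPKM in the others, while its widely expressed paralogue COX7A2 was at 121 to 245 FPKM. NDUFA4L2, a hypoxia-induced paralogue, did not exceed 0.32 FPKM, while NDUFA4 was at 148 to 445 FPKM.

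Levels differed between complexes. In the Lv3NC controls the median member had 61.9 FPKM in complex I, 102 FPKM in complex II, 127 FPKM in complex III, 192 FPKM in complex IV and 197 FPKM in complex V. Within complex I the levels ran from 16.6 ± 1.87 FPKM (SD, n = 3) for the accessory subunit NDUFA5 to 174 ± 23.8 FPKM for the accessory subunit NDUFA7. Among the core subunits, which carry the flavin and iron-sulfur clusters, NDUFS3 was at 18.8 ± 4.64 FPKM. Other core genes were NDUFS1 at 36.5 ± 3.79, NDUFV1 at 49.7 ± 3.52, NDUFS7 at 57.2 ± 4.07, NDUFS8 at 66.2 ± 4.59 and NDUFV2 at 96.0 ± 3.45 FPKM. NDUFV1 and NDUFS7, neighbours in that order, differed by less than the sum of their SDs. Complex I had the lowest median in every group, but the order of complexes IV and V varied. Complex IV was above complex V in Lv133KD (219 against 212 FPKM), Lv20NC (288 against 203 FPKM) and OV143 (342 against 239 FPKM). It was below complex V in Lv143KD (204 against 208 FPKM), as in Lv3NC. In Lv3NC, Lv133KD and Lv143KD the median of complex IV was the value of NDUFA4. Lv20NC and OV143 come from the other table, which was normalised separately, so the order may differ by table rather than by vector.

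**Figure D1:**
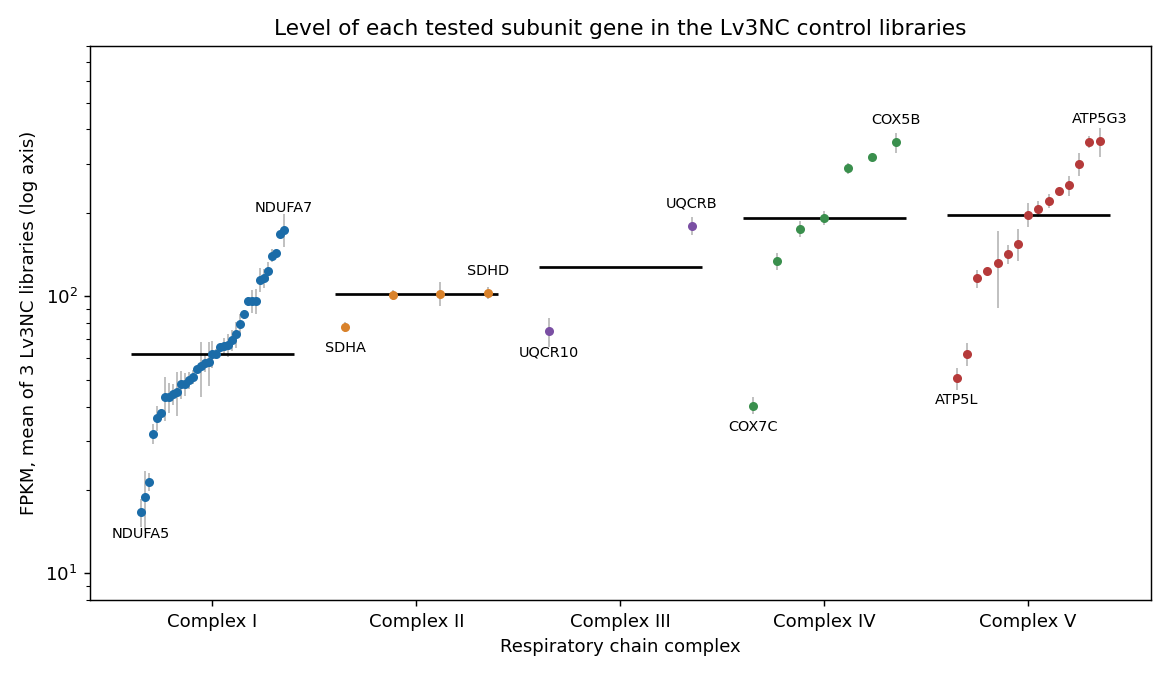
Mean FPKM of each tested subunit gene over the 3 Lv3NC control libraries (vertical axis, logarithmic), ordered by level within complexes I to V; vertical lines are the SD and black bars the median of the complex. Complex I has the lowest median (61.9 FPKM), and complexes IV and V have similar medians at the top (192 and 197 FPKM). COX7C lies far below the other complex IV genes.

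The 4 genes of complex II were the most even set. SDHA, the flavoprotein, stood at 77.6 ± 3.42 FPKM in Lv3NC, and SDHB, the iron-sulfur subunit, at 102 ± 9.89 FPKM. The membrane anchors SDHC and SDHD were at 101.2 ± 4.08 and 103 ± 5.39 FPKM, so that SDHB, SDHC and SDHD did not differ beyond their SDs. In complex III the ubiquinol-cytochrome c reductase subunits UQCR10 and UQCRB had 74.6 ± 9.12 and 180 ± 13.8 FPKM.

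Complex IV ranged from 40.3 ± 2.85 FPKM for COX7C to 359 ± 30.6 FPKM for COX5B, both nuclear-encoded accessory subunits. In complex V the lowest gene was ATP5L, which encodes the membrane subunit g, at 50.6 ± 4.66 FPKM. The highest was ATP5G3, 1 of 3 genes for the proton-carrying c subunit, at 362 ± 43.9 FPKM. It did not differ beyond its SD from ATP5A1, the alpha subunit of the catalytic F1 head, at 361 ± 17.7 FPKM, and the beta subunit gene ATP5B followed at 300.3 ± 28.5 FPKM. The other genes of the c subunit, whose mature protein is the same from all 3 genes, were at 252 ± 20.8 FPKM for ATP5G2 and 131 ± 40.5 FPKM for ATP5G1. Small subunit genes such as these have many processed copies in mammalian genomes, and how reads that fit several places were counted is not given in the sources used here.

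Members varied little between the 9 knockdown libraries. The coefficient of variation over those libraries had a median of 7.36% over members, against 13.8% over all 11645 tested genes and 10.9% over the 3821 other genes with a mean of at least 20 FPKM. ATP5G1 varied most (24.7%). In the overexpression table the order was the other way around, with 20.6% over members, 14.7% over all 11506 tested genes and 13.1% over the more abundant genes. There ATP5A1 varied least (1.996%) and ATP5G1 again most (35.2%). Without OV143 replicate 2 the medians were 6.94% over members, 9.19% over all tested genes and 7.55% over the more abundant ones, and ATP5G1 was at 6.66%.

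A single library stood apart in that table. The deviation of each gene from its mean over the table was taken on the log2(FPKM + 1) scale, and its median over members was 0.48 in OV143 replicate 2 but between -0.17 and 0.02 in the other 5 libraries. OV143 replicate 2 had the highest value of the 6 libraries for 64 of 67 members (95.5%), and it was the highest for 38.6% and the lowest for 37.7% of all tested genes. The median deviation in that library was 0.48 for complex I, 0.58 for complex III, 0.55 for complex IV and 0.53 for complex V, and 0.24 for complex II. Within complex I it was 0.49 over the 30 accessory subunits and 0.29 over the 7 core subunits. Within complex V it was 0.65 over the c subunit genes, 0.62 over the membrane subunits, 0.47 over the peripheral stalk and 0.18 over the F1 head.

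**Figure D2:**
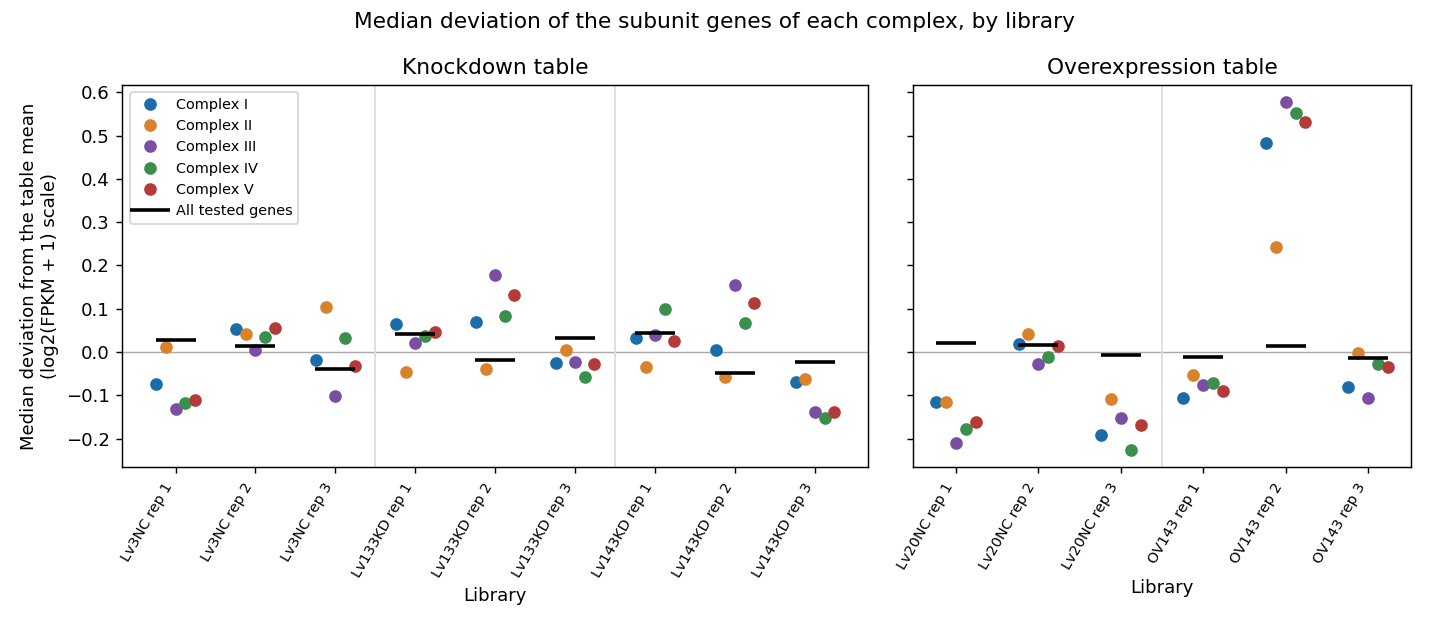
Median over the members of each complex of the deviation from the table mean (vertical axis, log2(FPKM + 1) scale) in each of the 15 libraries, with the median of all tested genes as a black bar. OV143 replicate 2 lies at 0.24 for complex II and at 0.48 to 0.58 for the other complexes, while all tested genes stay near 0.

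The members that deviated most in OV143 replicate 2 were ATP5G1 by 0.83, NDUFA3 by 0.78, NDUFA11 by 0.70 and ATP5L by 0.65. Other members, NDUFB2 among them, lay close behind ATP5L. Members of the catalytic parts differed among themselves. NDUFS1, the iron-sulfur subunit at the entry of complex I, was 0.15 below its table mean (-0.15). The F1 genes ATP5A1 and ATP5B deviated by 0.02 and 0.13, whereas the iron-sulfur core subunits NDUFS7 and NDUFS8 deviated by 0.53 and 0.61, above the median member. SDHD deviated by 0.11 and ATP5S by 0.06. Outside the complexes, the mitochondrial ribosome had a median deviation of 0.37 over 77 genes in the same library, and glycolysis 0.43 over 17 genes. TCA cycle genes were at 0.04 over 13 genes and regulators of mitochondrial genes at -0.10 over 16 genes. The part of the larger FPKM sum of this library in its subunit values was not tested.

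In the knockdown table no library deviated by more than 0.10 in the median over members. Lv143KD replicate 3 was lowest, at -0.10, and had the lowest value of the 9 libraries for 29 of 67 members (43.3%), against 14.3% of all tested genes. Lv3NC replicate 1 followed at -0.09 with 16 lowest values (23.9%, against 7.32% of all tested genes). Lv133KD replicate 2 was highest, at 0.08, and held the highest value for 22 members (32.8%, against 11.8% of all tested genes). For some genes replicate 2 was the highest of the 3 in all 5 groups, among them ATP5G1, ATP5G2, ATP5G3 and UQCR10. The replicate number was also fitted as a block, on the ground of correlations over all tested genes that are described with the processing.

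Under the Lv133KD vector no respiratory chain gene passed the test. None of the 67 tested members passed an adjusted p under 0.05 in limma against Lv3NC, where 0.0172% of all tested genes did, and none did with the replicate block, where 0.258% did. At an unadjusted p under 0.05 the members numbered 0 without the block (3.26% of all genes). With the block they numbered 4, 5.97% of members beside 16.5% of all genes. The median log2 fold change was 0.04 over members and 0.0083 over all tested genes, and 47 of 67 members had a positive value, against 52.3% of all genes. With each library centred on its median gene, 37 of 67 were positive. Without Lv3NC replicate 1 the median over members was 0.0042, below the 0.03 of all genes, with 34 of 67 positive. Complex I had a median of 0.06 with 29 of 37 positive, complex III 0.13 with both positive, complex IV 0.01 with 5 of 7 and complex V 0.04 with 11 of 15. Complex II had a median of -0.06, with all 4 genes negative. Without Lv3NC replicate 1 complex I was at 0.01, complex II at -0.09 and complex IV at -0.02. The median standard error was 0.10 over members.

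**Figure D3:**
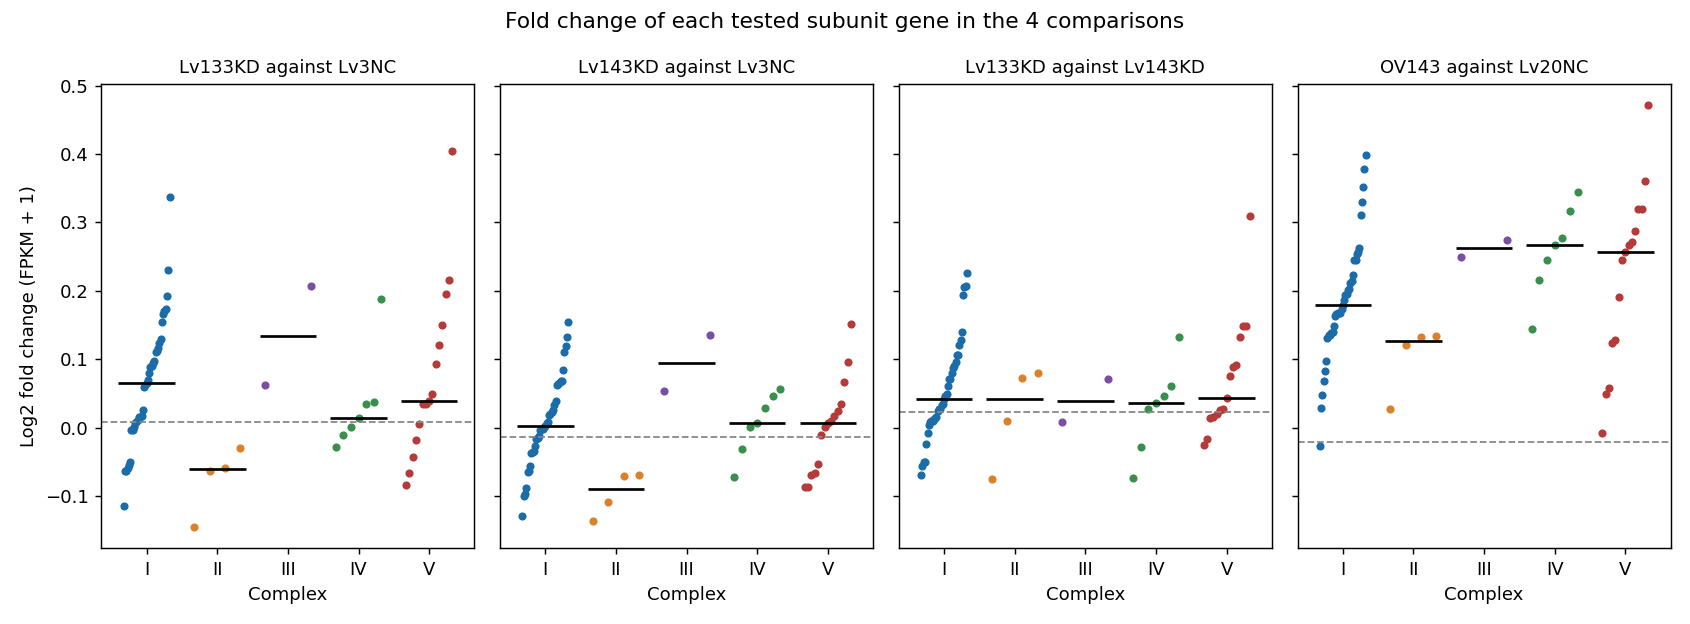
Log2 fold change on the log2(FPKM + 1) scale (vertical axis) of each tested member in the 4 comparisons, by complex; each point is a gene, black bars are medians and the dashed line is the median of all tested genes. Most values lie between -0.15 and 0.2 in the 3 knockdown comparisons, and 65 of 67 are above 0 for OV143 against Lv20NC; no point passed the adjusted test.

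The largest difference was that of ATP5G1 (chromosome 12, 25110540 to 25113481, Sscrofa11.1). It had 132, 172 and 90.6 FPKM in Lv3NC replicates 1 to 3, and 172, 186 and 149 FPKM in Lv133KD. Each Lv133KD library exceeded the control library of the same number, but the groups overlapped. The log2 fold change was 0.41 (SE 0.28, limma adjusted p 0.926, with the block SE 0.13 and adjusted p 0.228), and it was 0.16 without Lv3NC replicate 3 and 0.62 without Lv3NC replicate 2. The other c subunit genes differed by 0.04 (ATP5G2) and 0.12 (ATP5G3).

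In complex I the largest difference was that of NDUFB7, an accessory subunit of the membrane arm (chromosome 2, 64718892 to 64723631). Its values were 60.8, 65.25 and 41.8 FPKM in Lv3NC and 73.7, 67.5 and 67.9 FPKM in Lv133KD. The groups did not overlap, with Lv3NC replicate 3 well below the rest. The log2 fold change was 0.34 (SE 0.18, limma adjusted p 0.926, with the block 0.239), and it was 0.14 without Lv3NC replicate 3. Groups did not overlap and Lv133KD was higher for 5 of 67 members, NDUFS5, NDUFA4 and ATP5L among them. They stand beside 4.69% of all tested genes, and no member was lower without overlap (3.33% of all genes). NDUFA4, the largest difference in complex IV, had 187, 205 and 184 FPKM in Lv3NC and 215, 226 and 214 FPKM in Lv133KD, a log2 fold change of 0.19 (adjusted p 0.926).

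UQCR10 had 73.65, 84.2 and 66.03 FPKM in Lv3NC and 85.6, 94.8 and 78.1 FPKM in Lv133KD. The groups overlapped, and the log2 fold change was 0.21 (SE 0.14, limma adjusted p 0.926), or 0.12 without Lv3NC replicate 3. SDHB, the largest difference in complex II, had 98.6, 94.8 and 113.5 FPKM in Lv3NC and 88.9, 86.9 and 101.2 FPKM in Lv133KD. Each Lv133KD library was below the control library of the same number, with overlapping groups and a log2 fold change of -0.15 (SE 0.11, limma adjusted p 0.926, with the block 0.310), or -0.07 without Lv3NC replicate 3. SDHA, SDHC and SDHD differed by -0.03, -0.06 and -0.06. The core subunits of complex I lay between -0.06 (NDUFV1) and 0.12 (NDUFS3), and the catalytic F1 genes at 0.0053 (ATP5A1) and 0.03 (ATP5B).

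Under the Lv143KD vector no subunit gene passed either. None of 67 members passed in limma (0.0172% of all genes) or with the block (0.172%), and none reached an unadjusted p under 0.05 without the block (1.79%) or with it (5.74%). The median log2 fold change was 0.0016 over members and -0.01 over all genes, and 36 of 67 members were positive, against 44.2% of all genes. Leaving out 1 library gave from 20 positive members and a median of -0.03 (without Lv3NC replicate 1) to 46 and 0.04 (without Lv143KD replicate 3). The largest differences were NDUFB9 in complex I at 0.15, SDHD in complex II at -0.14, UQCR10 in complex III at 0.14, COX7C in complex IV at -0.07 and ATP5I, which encodes the membrane subunit e, in complex V at 0.15. All 5 had a limma adjusted p of 1.00. Without Lv143KD replicate 3 ATP5I was at 0.29 and UQCR10 at 0.27, and without Lv143KD replicate 2 they were at 0.07 and 0.05.

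ATP5G1 was at 161, 175 and 88.75 FPKM in Lv143KD, so that its lowest library fell beside the lowest Lv3NC library, and its log2 fold change was 0.10 (SE 0.28). NDUFB4, an accessory subunit of complex I, was the only member whose groups did not overlap: 117, 118 and 134 FPKM in Lv3NC and 112, 114 and 111 FPKM in Lv143KD. That is 1 of 67 members lower, against 2.03% of all genes, and none higher, against 2.11%. Its log2 fold change was -0.13 (SE 0.09, limma adjusted p 1.00).

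All 4 genes of complex II were again below Lv3NC on average. SDHD had 96.8, 106.6 and 105.6 FPKM in Lv3NC, 95.9, 109 and 91.1 FPKM in Lv133KD and 95.8, 97.7 and 87.4 FPKM in Lv143KD, with overlap throughout. The log2 fold changes for Lv143KD were -0.11 for SDHA, -0.07 for SDHB, -0.07 for SDHC and -0.14 for SDHD. Both knockdown comparisons use the same 3 control libraries, so the second is not a separate observation of the first. Leaving out Lv133KD replicate 2 turned SDHA to 0.05 in the first comparison, and leaving out Lv3NC replicate 3 turned SDHB to 0.0054 in the second.

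The direct comparison of Lv133KD with Lv143KD called no gene at all in limma (0% of all genes, also 0% with the block). At an unadjusted p under 0.05 it gave 0 members without the block (0.129% of all genes). With the block it gave 1, ATP5G1, which is 1.49% of members beside 1.79% of all genes. Positive values were found for 55 of 67 members, against 58.2% of all genes, with a median of 0.04 over members and 0.02 over all genes. With centred libraries 37 of 67 were positive, and without Lv143KD replicate 3 there were 33. The largest differences were ATP5G1 at 0.31, NDUFB7 at 0.23, NDUFA4 at 0.13, SDHA at 0.08 and UQCR10 at 0.07, each with a limma adjusted p of 1.00.

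NDUFA4 had 220.4, 243 and 148 FPKM in Lv143KD, with replicate 3 alone below all Lv133KD libraries. Without that library the log2 fold change was 0.0047 for ATP5G1, 0.08 for NDUFB7, -0.08 for NDUFA4 and -0.06 for UQCR10. NDUFAB1, the mitochondrial acyl carrier protein, did not overlap, with 93.9, 93.6 and 87.9 FPKM in Lv133KD and 87.04, 87.2 and 77.8 FPKM in Lv143KD. NDUFB10 was likewise higher in Lv133KD without overlap, and these 2 of 67 stand beside 2.11% of all genes.

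Under OV143 the subunit genes of all 5 complexes had positive medians, but none of the 67 tested members passed in limma. No gene of the table passed without the block (0% of all genes), and with the block 1.94% of all genes passed and no member. At an unadjusted p under 0.05 there were 2 members without the block, 2.99% of members beside 11.3% of all genes. With the block there were 20, 29.9% of members beside 19.9% of all genes. The median log2 fold change was 0.19 over members and -0.02 over all genes, and 65 of 67 members were positive, against 45.8% of all genes. By complex the median was 0.18 for complex I, 0.13 for complex II, 0.26 for complex III, 0.27 for complex IV and 0.26 for complex V. Without OV143 replicate 2 the median over members was 0.03 and 40 of 67 were positive, and by complex it was -0.0032, 0.03, 0.04, 0.11 and 0.05 in the same order. In that fit 4.46% of all genes passed and again no member (smallest adjusted p 0.118).

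The largest difference was that of ATP5L (chromosome 9, 45706449 to 45716541). It had 49.4, 59.5 and 56.1 FPKM in Lv20NC and 66.1, 102 and 66.02 FPKM in OV143. Every OV143 library lay above every control library, with replicate 2 far above the other two. The log2 fold change was 0.47 (SE 0.18, limma adjusted p 0.397, with the block 0.0725). Without OV143 replicate 2 it was 0.26.

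NDUFA1, a small membrane-arm subunit encoded on the X chromosome (98219717 to 98223873), had 46.03, 61.9 and 53.2 FPKM in Lv20NC and 63.3, 84.3 and 63.1 FPKM in OV143. The groups did not overlap, though Lv20NC replicate 2 came close to the lower OV143 libraries. Its log2 fold change was 0.38 (SE 0.16, limma adjusted p 0.428, with the block 0.0794), and 0.24 without OV143 replicate 2. NDUFB2, another membrane-arm subunit and the largest difference in complex I, had 44.7, 53.6 and 47.2 FPKM in Lv20NC and 54.9, 88.02 and 54.25 FPKM in OV143. Its groups were narrowly separated, with a log2 fold change of 0.40 (SE 0.19, limma adjusted p 0.492, with the block 0.109), and 0.17 without OV143 replicate 2.

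**Figure D4:**
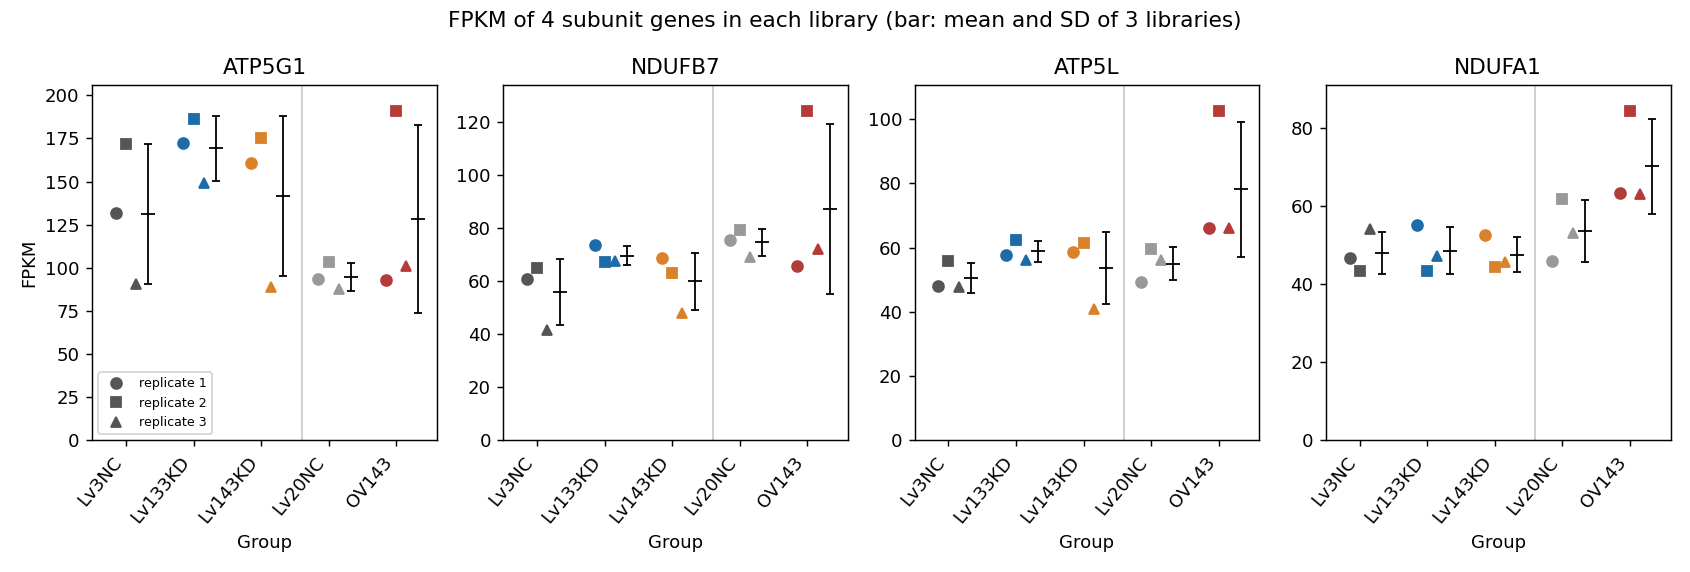
FPKM of ATP5G1, NDUFB7, ATP5L and NDUFA1 (vertical axes, from 0) in each library of the 5 groups, with marker shapes for the replicate numbers and bars for the mean and SD (n = 3); the grey line separates the tables. OV143 replicate 2 is the highest library of its table in all 4 panels, and for ATP5L and NDUFA1 the other OV143 libraries also lie above every Lv20NC library.

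Groups did not overlap for 7 of 67 members, all higher in OV143, against 8.96% of all genes, and for no member that was lower, against 12.9%. Besides ATP5L, NDUFA1 and NDUFB2 these were NDUFA4, ATP5J, NDUFA5 and ATP5A1. NDUFA4, the largest difference in complex IV, had 264, 275 and 247 FPKM in Lv20NC and 286, 445 and 289.7 FPKM in OV143. Its log2 fold change was 0.34 (SE 0.18, limma adjusted p 0.525), and 0.13 without OV143 replicate 2. ATP5A1 is an example of separation by a small margin, with 291, 294 and 288 FPKM in Lv20NC and 300.1, 299 and 303 FPKM in OV143, a log2 fold change of 0.05.

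For the paired fit without the libraries numbered 2, which leaves 2 pairs, 4 members passed: NDUFA1 (limma adjusted p 4.55e-04), ATP5L (0.00135), NDUFB2 (0.0275) and COX7A2 (0.0397). In that fit 12.7% of all genes passed, against 5.97% of members. Without the libraries numbered 1, ATP5G1 and ATP5L passed, 2.99% of members beside 6.13% of all genes, and without those numbered 3 no member did.

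ATP5G1 had 93.3, 103 and 87.6 FPKM in Lv20NC and 93.1, 191 and 101.01 FPKM in OV143. Only OV143 replicate 2 lay above the controls, and the log2 fold change was 0.36 (SE 0.26, limma adjusted p 0.623) with it and 0.04 without it. ATP5G2, with 400.2, 424 and 398 FPKM in Lv20NC and 395, 701 and 429.9 FPKM in OV143, and UQCR10, with 124, 131 and 128 FPKM against 135, 219 and 126 FPKM, also had their highest value there. Their log2 fold changes were 0.27 each, and 0.02 and 0.03 without it. In complex II the largest difference was that of SDHB, at 0.13 (limma adjusted p 0.721) and 0.02 without OV143 replicate 2, and SDHD was at 0.03 and -0.02. Some catalytic genes of complexes I and V had values near 0, with NDUFS1 at -0.03 and ATP5B at -0.0078, and at 0.04 and -0.08 without that library.

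Genes of related pathways gave no call either. The lists cover the assembly of complexes I to V, electron carriers, regulators, the mitochondrial ribosome, the TCA cycle and glycolysis, with 166 tested genes in the knockdown table and 167 in the overexpression table outside the subunits. Assembly is covered in part, since each table listed only 7 of 21 chosen genes for complex IV assembly and 3 of 6 for complex III assembly. In limma 0 of them passed in either direction in any of the 4 comparisons, with or without the block. At an unadjusted p under 0.05 there were 0 in each knockdown comparison and 11 for OV143, 6.59% beside 11.3% of all genes. With the block there were 15 for Lv133KD against Lv3NC (9.04% beside 16.5%), 5 for Lv143KD against Lv3NC (3.01% beside 5.74%), 3 between the knockdowns (1.81% beside 1.79%) and 25 for OV143 (15.0% beside 19.9%). The median log2 fold change of the mitochondrial ribosome was 0.04 for Lv133KD and -0.02 for Lv143KD against Lv3NC, and 0.08 for OV143 against Lv20NC. Regulators, which include PPARGC1A, NRF1 and TFAM, had medians of -0.05, -0.07 and -0.11 in the same order, and TCA cycle genes 0.00089, -0.04 and -0.0047. Glycolysis genes had 0.08, -0.03 and 0.31. Complex I assembly factors, which build the complex but are not part of it, were at -0.01, -0.0089 and 0.06. Without OV143 replicate 2 the OV143 medians were -0.06 for the mitochondrial ribosome, -0.07 for regulators, 0.04 for the TCA cycle, 0.16 for glycolysis and -0.0033 for complex I assembly.

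The control vectors of the 2 tables were set side by side as a description, since the tables were normalised separately and no test spans them. The ratio of mean FPKM in Lv20NC to that in Lv3NC was taken for 11030 genes with a mean of 1 FPKM or more in both control groups. Its median was 1.03 over members and 1.04 over all these genes, and 57 of 67 members lay within 1.5-fold. COX7C departed most (chromosome 2, 94345436 to 94347709). It had 37.04, 41.5 and 42.35 FPKM in Lv3NC and 274, 349 and 335 FPKM in Lv20NC. The groups are far apart, with a ratio of 7.92, and only 10 of the 11030 genes (0.0907%) had a higher one.

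COX7C is thus the lowest tested gene of complex IV in the knockdown table at 40.3 ± 2.85 FPKM, and among the higher ones in the overexpression table at 319 ± 39.6 FPKM, while within a table its highest library was 1.24-fold and 1.78-fold above its lowest. NDUFB3 had a ratio of 2.15, with 43.2 ± 7.77 and 92.9 ± 11.4 FPKM. ATP5D, the delta subunit of F1, was lower in Lv20NC, with 116 ± 8.78 FPKM in Lv3NC and 64.4 ± 6.38 FPKM in Lv20NC, a ratio of 0.555. SDHD had a ratio of 0.632, while the other SDH genes lay between 0.822 and 1.11. Control vector and table cannot be told apart here. Fewer cells of a type and less RNA per cell also cannot be told apart in bulk libraries.

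**Figure D5:**
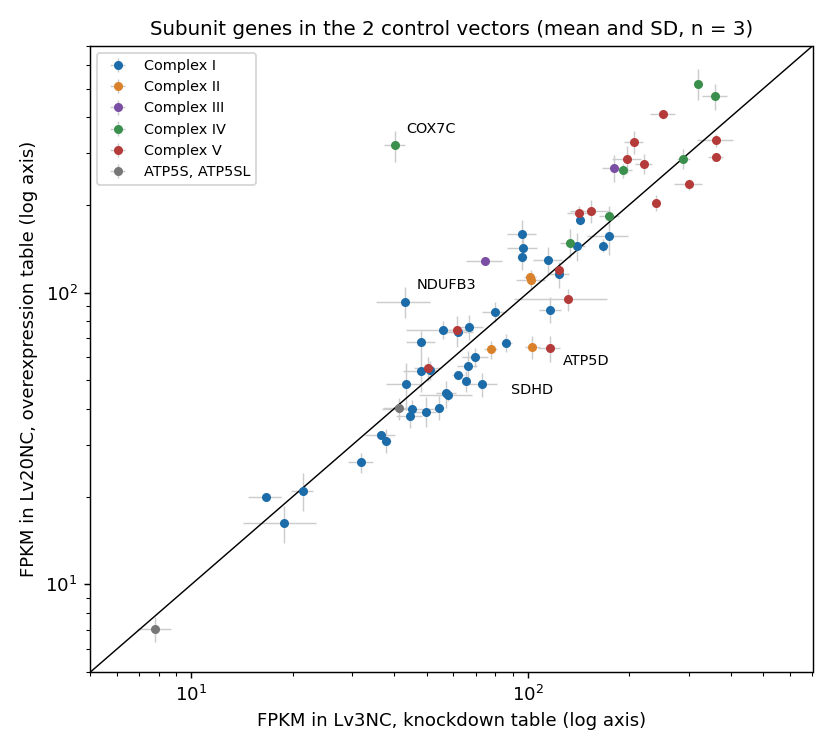
Mean FPKM of each tested member in Lv20NC (vertical axis) against Lv3NC (horizontal axis), both logarithmic, with SD lines (n = 3) and the line of equality; colours mark the complexes. Most genes lie along the line, COX7C lies 7.92-fold above equality, and ATP5D and SDHD lie below it.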

How the data were processed

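The authors deposited gene FPKM, per the file headers, rounded to 2 decimals: 1 table holds the 9 knockdown libraries and another the 6 overexpression libraries, so tests stayed within a table. The build is Sscrofa11.1 per the submitters' processing notes. For the aligner and counter, the tool is not given in the sources used here. Symbols and coordinates came from a RefSeq gene table of that build and matched 18618 of 19000 and 16949 of 17001 genes. No libraries held identical values.

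Each whole table was fitted on log2(FPKM + 1), which understates changes of low genes, with limma 3.58.1 in R 4.3.3 (trended empirical Bayes, two-sided, Benjamini-Hochberg over 11645 and 11506 genes that had 1 FPKM or more in 3 or more libraries). The call threshold was an adjusted p of 0.05. The fit was tested on simulated data with larger changes than any member showed and with no library shifted as a whole. That test does not show how often changes of the size seen in members would be called. The replicate number was added as a block in a second fit: same-numbered libraries correlated in their deviations from group means (r 0.27 to 0.85 over 9 pairs and 0.23 to 0.72 over 3), above the limit of 0.1 set for pairing. Some differently numbered pairs also passed that limit (r -0.87 to 0.38 over 18 pairs and -0.68 to 0.54 over 6). OV143 replicate 1 correlated more with Lv20NC replicate 3 (0.54) than with Lv20NC replicate 1 (0.23), so the pairing is not established.

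Named members were those called in any comparison, the largest absolute change and the highest and lowest level per complex, the core, SDH and catalytic F1 subunits and paralogue families. NDUFS5, NDUFA5, NDUFAB1, NDUFB10, NDUFB4, ATP5J, NDUFA1, NDUFA3, NDUFA11, COX7A2, NDUFB3 and ATP5D were added after their values were seen. Members and lists were chosen with earlier results of these data known. Alternatives were a pseudocount of 0.1, no filter, a filter of 5 FPKM, centring, no trend and leaving out libraries. Leaving out libraries under the block, and OV143 replicate 2 for spread and lists, was chosen after seeing the data. The values of 1 member are not reported here.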

Additional observations from a re-analysis of the deposited data

How the results depend on the processing

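No member was called under centring, a pseudocount of 0.1, no filter, a filter of 5 FPKM, no trend, the replicate block (0 members in each of the 4 comparisons) or the omission of any single library without the block. For OV143 against Lv20NC the paired fit with libraries of 1 number left out called 0 to 4 members, with 2 without replicate 1 and 4 without replicate 2. Leaving out libraries changed signs of small differences. Against Lv3NC in Lv133KD, SDHA ranged from -0.076 to 0.049 (with the block -0.055 to 0.015) and SDHD with the block from -0.11 to 0.0096. Against Lv3NC in Lv143KD, ATP5G1 ranged from -0.15 to 0.40, COX7C from -0.13 to 0.0081 (with the block -0.16 to 0.044) and SDHB from -0.16 to 0.0054. For Lv133KD against Lv143KD, UQCR10 ranged from -0.063 to 0.16 and NDUFA4 from -0.083 to 0.28 (with the block -0.070 to 0.25). The cause of these changes was not tested. The FPKM do not give the depth, so precision rests on 3 libraries a group.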
